A study of Homo sapiens with 12 samples.

Results

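The TLE genes encode the human Groucho family of transcriptional corepressors. Members were the genes TLE1, TLE2, TLE3, TLE4, TLE5 and TLE6, chosen by name, which is 6 of the 15842 protein-coding genes with a strand in the RefSeq promoter table used here. For each gene the window around a transcription start site (TSS) on its strand and nearest its RefSeq 5′ end was taken, at most 1 kb away, together with all deposited peaks from 5 kb upstream to 5 kb downstream of the gene. All 6 genes had such a window. The family was selected with its signal known, since TLE4 had stood out by its read density. Levels are therefore given as a description, without a test.

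The data are a chromatin immunoprecipitation of DNA G-quadruplexes with the antibody BG4 on formaldehyde-fixed, sonicated chromatin of untreated HEK293, a line derived from human embryonic kidney, so that all samples share 1 condition. The 12 samples fall into 3 biological replicates, named BioRep1, BioRep2 and BioRep3, and each replicate consists of 3 technical libraries of the ChIP plus 1 input. The 9 ChIP libraries held 372030 to 846114 reads in 58381 windows of 400 bp, and the peak lists of BioRep1, BioRep2 and BioRep3 held 7931, 11665 and 13049 peaks. The inputs were not analysed here, and the labels do not say whether the biological replicates were separate cultures, so any p-value comparing them reflects technical spread alone.

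A G-quadruplex is a stack of guanine tetrads that can form in single-stranded DNA where several runs of guanines lie close together, and such sequences are common at promoters. Groucho corepressors do not bind DNA themselves. DNA-binding factors such as the HES repressors, the TCF and LEF factors of Wnt signalling and the RUNX factors recruit them, and they in turn bring histone deacetylases. TLE1 to TLE4 are the full-length members, with an oligomerising N-terminal domain and a C-terminal WD-repeat domain that binds short peptides of their partners. TLE5, formerly AES, lacks the WD repeats and can act against the full-length proteins, and TLE6 is a divergent member known from the subcortical maternal complex of oocytes and early embryos.

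Promoter sequences are shown first because the 6 genes differed in how their guanine runs and their peaks were placed. They come from RefSeq (GRCh38.p14), which lists 11 promoters for these genes, all of them with a sequence in the table. In each sequence, 5′ to 3′ on the gene's strand and ending just before the start site, capitals mark runs of 3 or more G or C. The promoter at the 5′ end of TLE4 (chr9:79571715-79571964, plus strand) underlies the highest signal, that of TLE1 (chr9:81689548-81689797, minus strand) faces a divergent transcript, and the internal promoter of TLE2 (chr19:3029281-3029530, minus strand) had the most G-runs and no peak.
TLE4: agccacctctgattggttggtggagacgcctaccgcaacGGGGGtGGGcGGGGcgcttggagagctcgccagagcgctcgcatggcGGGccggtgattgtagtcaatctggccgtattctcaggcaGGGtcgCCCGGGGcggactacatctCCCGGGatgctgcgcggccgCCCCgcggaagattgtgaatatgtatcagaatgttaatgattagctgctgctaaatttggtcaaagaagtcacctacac
TLE1: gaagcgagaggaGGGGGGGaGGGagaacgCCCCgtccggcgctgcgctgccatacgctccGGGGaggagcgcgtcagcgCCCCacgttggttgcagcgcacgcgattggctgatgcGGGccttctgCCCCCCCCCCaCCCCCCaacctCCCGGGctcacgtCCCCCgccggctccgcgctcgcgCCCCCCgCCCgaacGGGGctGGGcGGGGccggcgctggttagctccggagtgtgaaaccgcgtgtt
TLE2: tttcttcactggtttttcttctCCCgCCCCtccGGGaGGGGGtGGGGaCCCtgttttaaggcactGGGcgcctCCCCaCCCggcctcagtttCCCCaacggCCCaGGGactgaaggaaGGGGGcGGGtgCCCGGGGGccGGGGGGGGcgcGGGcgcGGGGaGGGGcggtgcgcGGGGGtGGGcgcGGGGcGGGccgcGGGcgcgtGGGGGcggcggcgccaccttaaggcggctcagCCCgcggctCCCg

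TLE4, which encodes a full-length corepressor, had rank 1 of the 13477 windows assigned to a protein-coding gene by the same rule. Their number equals 67.2% of 20056 such genes, but only the 15842 genes with a strand in the promoter table could be placed. A window near several genes kept only the nearest. Among all 58381 windows TLE4 lay at the 99.9th percentile, so some windows outside the protein-coding set were higher. Its window (ENSG00000106829.18, chromosome 9, 79571574 to 79571973, hg38) runs from -391 to 8 bp relative to the RefSeq 5′ end, where negative positions lie upstream. Reads are given as CPM, the reads in a window per 1000000 reads in all windows of its library. The technical libraries 1, 2 and 3 gave 209.8, 212 and 196 CPM in BioRep1, 234, 226 and 255 CPM in BioRep2, and 235, 234 and 279.7 CPM in BioRep3. All 3 BioRep1 libraries lay below all libraries of the other replicates. The mean was 231 ± 22.7 CPM (SD, n = 3 biological replicates), from 79 to 191 reads per library. Across all libraries 1290 reads were counted, for a pooled level of 232 CPM (95% exact Poisson interval 220 to 245 CPM). Such intervals cover counting error only. By comparison, protein-coding windows without a peak in any list had a median of 11.4 CPM, and those with a peak in all 3 lists had a median of 64.8 CPM. TLE4 was 20.4 times the first.

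TLE6, the oocyte and embryo member, came next with 62.2 ± 8.20 CPM (n = 3; ENSG00000104953.19, chromosome 19, 2977247 to 2977646). Its libraries 1, 2 and 3 gave 47.0, 48.4 and 65.2 CPM in BioRep1, 57.2, 65.0 and 67.4 CPM in BioRep2, and 84.2, 54.6 and 70.8 CPM in BioRep3. The replicates overlapped, and the mean lay close to the 64.8 CPM median of protein-coding windows with a peak in all lists. TLE4 exceeded TLE6 in 9 of 9 libraries, by 3.73 ± 0.140 times over the biological replicates, and their ranges did not overlap. From TLE6 downwards the ranges of each pair of neighbours in the order overlapped.

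TLE3 had 35.5 ± 4.86 CPM (n = 3; ENSG00000140332.15, chromosome 15, 70097977 to 70098376). Its 3 libraries gave 34.4, 53.8 and 32.6 CPM in BioRep1, 33.0, 42.5 and 31.3 CPM in BioRep2, and 34.3, 28.7 and 28.6 CPM in BioRep3. A single BioRep1 library stood above the rest. It was technical library 2, which had the fewest reads in windows of all libraries (372030). That library also gave the highest values of TLE2 and TLE5, but not those of TLE1, TLE4 or TLE6. The TLE1 window (ENSG00000196781.14, chromosome 9, 81689106 to 81689505) had 29.5 ± 3.59 CPM. TLE1 had 34.4, 37.6 and 27.2 CPM in BioRep1, 38.2, 29.5 and 20.4 CPM in BioRep2, and 28.1, 24.4 and 25.3 CPM in BioRep3. TLE3 exceeded TLE1 in 7 of 9 libraries, with overlapping ranges.

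TLE2, a full-length member, and TLE5, the short member, had the lowest windows of the family. The TLE2 window (ENSG00000065717.14, chromosome 19, 3047436 to 3047835) had 20.2 ± 1.22 CPM, with 12.5, 34.9 and 9.06 CPM in BioRep1, 19.1, 21.3 and 21.9 CPM in BioRep2, and 24.9, 21.5 and 16.8 CPM in BioRep3. The BioRep1 libraries held both the highest and the lowest of the 9 values, so the small SD over replicate means understates the spread between libraries. TLE5 (ENSG00000104964.14, chromosome 19, 3062908 to 3063307) had 13.1 ± 0.385 CPM, with 7.83, 21.5 and 10.9 CPM in BioRep1, 19.1, 9.45 and 9.40 CPM in BioRep2, and 17.1, 17.2 and 5.05 CPM in BioRep3. These TLE5 values rest on 3 to 12 reads per library and 70 reads in all, and the pooled level was 12.6 CPM (9.82 to 15.9 CPM), an interval that holds the 11.4 CPM median of windows without a peak. TLE2 exceeded TLE5 in 7 of 9 libraries.

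**Figure D1:**
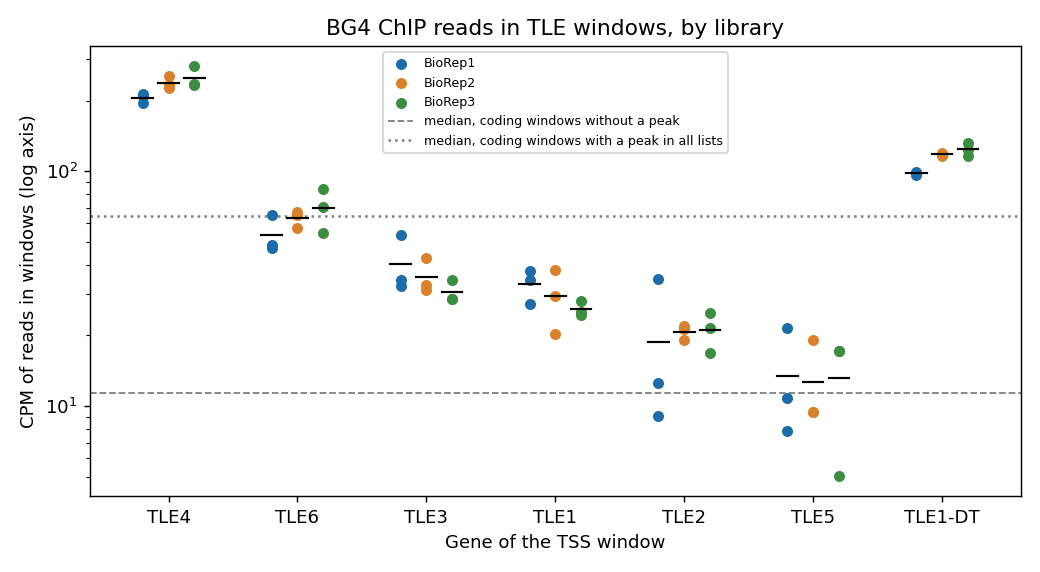
Each point is 1 library, given as CPM of reads in windows on a log axis, for the 6 TLE windows in order of their mean and for the window of TLE1-DT, the transcript divergent from TLE1. Short black bars are means over the 3 technical libraries of a biological replicate, and the horizontal lines are the medians of protein-coding windows without a peak (11.4 CPM) and with a peak in all 3 lists (64.8 CPM). TLE4 stands alone at 196 to 279.7 CPM.

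Read density within 2 Mb of the genes varied much less than the levels of their own windows. The mean over windows lacking a peak and assigned to no protein-coding gene was 12.2 ± 0.663 CPM around TLE4 (29 windows), 12.03 ± 0.736 CPM around TLE3, 11.2 ± 0.701 CPM around TLE6, 11.0 ± 0.654 CPM around both TLE2 and TLE5, and 10.5 ± 0.355 CPM around TLE1 (n = 3 for each). Relative to these, TLE4 was 19.0 ± 2.79 times its surroundings, TLE6 5.57 ± 1.07 times and TLE3 2.95 ± 0.256 times. TLE1 was 2.80 ± 0.276 times, TLE2 1.85 ± 0.216 times and TLE5 1.19 ± 0.0639 times. The surroundings depended on the span taken: within 1 Mb they had 6.12 CPM at TLE1 and 15.1 CPM at TLE4.

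Of the 6 windows, 2 had a peak in all 3 lists, those of TLE4 and TLE6, against 25.4% of protein-coding windows. TLE1 and TLE3 had a peak in 2 lists, so 4 had a peak in at least 2, against 36.1%. The same 4 windows had a peak in any list, against 43.3%, and TLE2 and TLE5 had none. TLE4 was covered over 358, 396 and 396 of its 400 bp by the peaks of BioRep1, BioRep2 and BioRep3, and TLE6 over 177, 249 and 308 bp. By contrast the TLE1 window was touched over 11 bp in BioRep1 and 33 bp in BioRep3 and missed by 2 bp in BioRep2. TLE3 was touched over 33 bp in BioRep1 and 75 bp in BioRep2, and the BioRep3 peak ended 18 bp short of it. If at least 50 bp of the window had to be covered, TLE1 had a peak in 0 lists and TLE3 in 1, and with peaks up to 200 bp away both had one in 3.

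The wider loci held 13 separate sites, made by joining peaks of any list that overlapped, out of 36 peaks. Of these sites 8 had peaks of all 3 lists, 1 of BioRep2 and BioRep3, and 4 of BioRep3 alone, the longest list. At least 1 site of all 3 lists lay at 5 of the 6 genes, against 35.8% of the 15842 protein-coding genes. A site of any list lay at all 6, against 57.8%. Each locus holds the whole gene, from 10057 bp at TLE5 to 154918 bp at TLE4, and neither share was matched for gene length. The deposited lists carry no score, so sites could be compared only by position, length and recurrence. Over the genome, 40.9% of 14882 sites had peaks of all 3 lists and their median length was 327 bp.

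At TLE4 the peaks formed a dense group on both sides of the 5′ end. One site of all 3 lists reached from -970 to 4 bp relative to it (chromosome 9, 79570995 to 79571969), 975 bp long, a length reached by 0.444% of the sites of all 3 lists. Its longest peak measured 535 bp in BioRep1, 675 bp in BioRep2 and 756 bp in BioRep3. No list had a continuous peak over this site, since a gap split it in each. The gaps were bridged only where a BioRep1 peak ending at 79571216 overlapped a BioRep3 peak starting at 79571214. Without that short overlap the site would split, so its length rests on the joining of lists. A second site of all 3 lists lay 518 to 848 bp downstream (79572483 to 79572813). Further downstream, a site of BioRep2 and BioRep3 at 1074 to 1204 bp ended just before the internal start site of TLE4, 1212 bp from the 5′ end. BioRep3 alone added short sites of 23 bp upstream and 58 bp downstream. In all, TLE4 had 5 sites, a number reached by 1.37% of protein-coding genes, and peaks covered 816 bp in BioRep1, 1111 bp in BioRep2 and 1340 bp in BioRep3. Joining pieces across gaps of at most 100 bp left 3 sites, a number that 9.64% of protein-coding genes reached before such joining. These shares were not matched for gene length, which is 154918 bp for TLE4.

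TLE1 had a single site of all 3 lists. Joined over the lists, it covered the 5′ end of TLE1 and the start of TLE1-DT, the divergent long non-coding transcript. That start lies at -166 bp from the TLE1 5′ end. The site reached from -554 to 74 bp relative to the TLE1 5′ end (chromosome 9, 81689473 to 81690101) and was 629 bp long, a length reached by 4.56% of sites of all 3 lists. BioRep2 and BioRep3 had a single peak there, of 594 and 611 bp, where BioRep1 had peaks of 137 and 298 bp. The BioRep1 peaks lay at -84 to 52 and -481 to -184 bp, so the TLE1-DT start fell between them and that list did not cover it. The midpoint of the joined site lay at -240 bp from the TLE1 5′ end and 74 bp downstream of the TLE1-DT start.

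The window named for TLE1 reached only the edge of this joined site, while the whole TLE1-DT window lay within it. The TLE1 window begins 42 bp downstream of the RefSeq 5′ end. The TLE1-DT window (ENSG00000233926.1, chromosome 9, 81689514 to 81689913) lies 8 bp from that same edge and extends across the 5′ end. TLE1-DT had 98.6, 99.5 and 96.0 CPM in BioRep1, 119.7, 118 and 116 CPM in BioRep2, and 132, 116 and 123 CPM in BioRep3. All BioRep1 libraries lay below the other 6. The mean was 113 ± 13.5 CPM (n = 3), or 3.92 ± 0.913 times the TLE1 window, and between 2.64 and 5.69 times in the single libraries. The level of the TLE1 promoter thus depended on which annotated start site was taken.

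**Figure D2:**
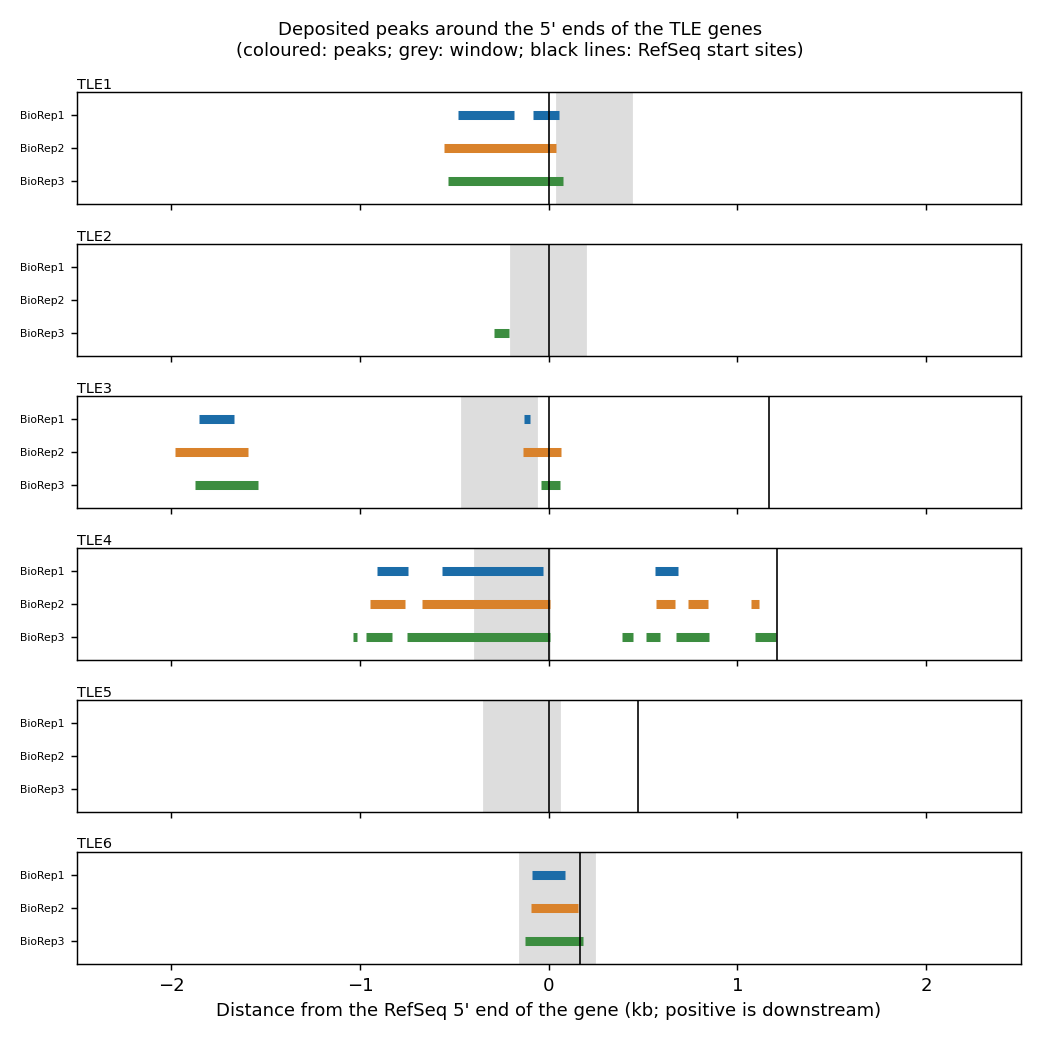
Coloured bars are the deposited peaks of each biological replicate at the 6 TLE genes, against the distance from the RefSeq 5′ end in kb, positive downstream. Grey bands are the 400 bp windows and vertical black lines are RefSeq start sites. The TLE4 and TLE6 windows lie on peaks, the TLE1 and TLE3 windows reach only the edge of theirs, and TLE5 has no peak in the range drawn.

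TLE3 had 2 sites of all 3 lists. The first, 201 bp long (chromosome 15, 70097851 to 70098051), straddled the 5′ end from -134 to 66 bp. It rested on a BioRep1 peak of 33 bp that overlapped the BioRep2 peak but not the BioRep3 peak, and without peaks under 50 bp TLE3 kept 1 site of all 3 lists. The second, 439 bp long (70099457 to 70099895), lay upstream at -1978 to -1540 bp, outside any gene of the RefSeq table, with peaks of 187, 386 and 334 bp in BioRep1, BioRep2 and BioRep3. Its midpoint lay at -1759 bp from the nearest RefSeq start site, that of TLE3. Over the genome 20.1% of the sites of all 3 lists lay beyond 1 kb of any start site in the table, which is not complete. BioRep3 alone had a further peak 35281 to 35495 bp into the gene.

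TLE2 carried its recurrent peaks inside the gene. The 2 sites of all 3 lists lay 11135 to 11411 bp and 11767 to 12021 bp downstream of the 5′ end (chromosome 19, 3036224 to 3036500 and 3035614 to 3035868). They were 277 and 255 bp long. Their midpoints lay at -7082 and -6461 bp from the internal TLE2 start site, which was the nearest start site of any gene in the table. Beyond 5 kb of a start site lay 16.0% of the sites of all 3 lists in the genome. At the 5′ end itself TLE2 had only a BioRep3 peak of 80 bp, at -292 to -213 bp and 12 bp outside the window. Reads are not given for the internal sites, since no window covers them.

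**Figure D3:**
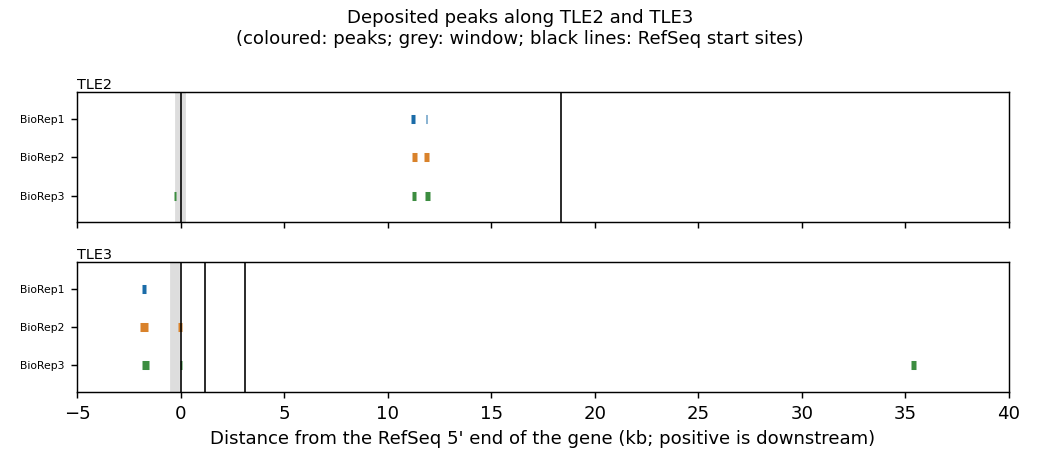
Coloured bars are the deposited peaks of each biological replicate along TLE2 and TLE3, against the distance from the RefSeq 5′ end in kb. Grey bands are the 400 bp windows and black lines are RefSeq start sites. In TLE2 the peaks of all 3 lists have midpoints 11273 and 11894 bp from the 5′ end, between the start sites, and in TLE3 BioRep3 alone has a peak beyond 35 kb.

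TLE6, TLE2 and TLE5 lie side by side within 85566 bp of chromosome 19, and their peaks differed. TLE6 and TLE2 end 2464 bp apart, tail to tail, and TLE5 ends 5274 bp before the start of TLE2. TLE6 had 1 site of all 3 lists (2977277 to 2977584, 308 bp), from -124 to 183 bp relative to its 5′ end. TLE5 had none at its start sites. Its only entry was the 80 bp BioRep3 peak upstream of TLE2, which entered the TLE5 locus by 18 bp at its 5 kb edge, and with flanks of 1 kb TLE5 had 0 sites. The nearest peak to the TLE5 window was 26407 bp away in BioRep1, 26447 bp in BioRep2 and 14980 bp in BioRep3.

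Guanine runs in the promoters did not follow the order of the window levels, which were taken over partly different bases. The TLE1 window, which begins 42 bp downstream of the 5′ end, shares little with its promoter. No internal promoter has a read level here. The motif searched was 4 runs of at least 3 G (GGG) separated by 1 to 7 bases of any kind (N), on both strands, in the 300 bases from 250 upstream to 50 downstream of each start site. The bases between runs could themselves be G, so a long G-run could count as more than 1 run, in TLE promoters and in all others. Matches on 1 strand did not overlap each other, and matches on opposite strands were counted separately. Of the 11 TLE promoters 7 held it, against 30.4% of 22198 protein-coding promoters and 25.0% of all 35116 promoters in the table. The TLE1 promoter was among them only through such a split of a long G-run. The 5′ promoter of TLE4 held none, although 3 of its G-runs lie together as GGGGGtGGGcGGGG in the sequence above. It had 12 G-runs on both strands together, at the 34.2th percentile of protein-coding promoters, and 58.7% GC, while peaks covered 217, 255 and 255 of its 300 bases in BioRep1, BioRep2 and BioRep3. Most of the 975 bp TLE4 site lies upstream of these 300 bases, in sequence not searched here.

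TLE6 held 3 matches, a number reached by 2.81% of protein-coding promoters. The sequences of 2 of them are shown because peaks of all 3 lists overlapped them, with the G-runs in capitals. The first (chr19:2977404-2977424) lies on the strand opposite to the gene and the second (chr19:2977477-2977494) on the gene's strand. In the first, the longest G-run was counted as 2 runs, so 1 of the 3 matches rests on that split.
TLE6 match 1: GGGttcGGGctccGGGGGGGG
TLE6 match 2: GGGtGGGGcctGGGcGGG

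TLE1 had 18 G-runs and 1 match, on the opposite strand (chr9:81689647-81689671), overlapped by peaks of 2 lists since it fell between the BioRep1 peaks. It is printed here because it is the long C-run seen in the TLE1 promoter above. The longest G-run was again counted as 2 runs, so the only TLE1 match rests on that split.
TLE1: GGGaggttGGGGGGtGGGGGGGGGG

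The internal promoters of TLE2 and TLE5 were the richest in guanine of the family and had no peak in any list. The internal TLE2 promoter, 18355 bp into the gene, had 33 G-runs, more than 99.6% of protein-coding promoters, with 79.7% GC and 2 matches. That of TLE5, 471 bp from its 5′ end, had 24 G-runs (90.2th percentile), 80.0% GC and 2 matches. Of 78 protein-coding promoters with at least 33 G-runs, 59.0% had a peak in no list, and of 2174 with at least 24, 58.6%. Over all 22198 protein-coding promoters 39.2% had a peak in any list, so these shares were close to the general one. Among protein-coding promoters with the motif 29.5% had peaks of all 3 lists, against 19.8% of those without it. The TLE2 matches lay at chr19:3029384-3029412 and chr19:3029338-3029357, and those of TLE5 at chr19:3062652-3062670 and chr19:3062613-3062634.
TLE2 match 1: GGGGGcGGGtgcccGGGGGccGGGGGGGG
TLE2 match 2: GGGGGtGGGcgcGGGGcGGG
TLE5 match 1: GGGGcGGGGGcGGGccGGG
TLE5 match 2: GGGcGGGccacGGGGaggcGGG

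The remaining TLE promoters also varied. At the 5′ end of TLE3 the promoter had 12 G-runs, no match and peaks of all 3 lists, while its internal promoter 1165 bp downstream had 18 G-runs, 1 match and no peak. The other internal TLE3 promoter, 3128 bp downstream, had 13 G-runs, no match and no peak. The internal TLE4 promoter had 20 G-runs and 1 match, and peaks of BioRep2 and BioRep3 overlapped the promoter but not the match. At the 5′ end of TLE5 there were 19 G-runs, 1 match and no peak, and at that of TLE2 there were 12 G-runs, no match and 38 bases covered in BioRep3 alone. In all, 4 of the 11 promoters had peaks of all 3 lists, against 22.7% of protein-coding promoters, and 6 of 11 had a peak in any list, against 39.2%. A match is a description of letters and no match says nothing of structures outside the searched bases.

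**Figure D4:**
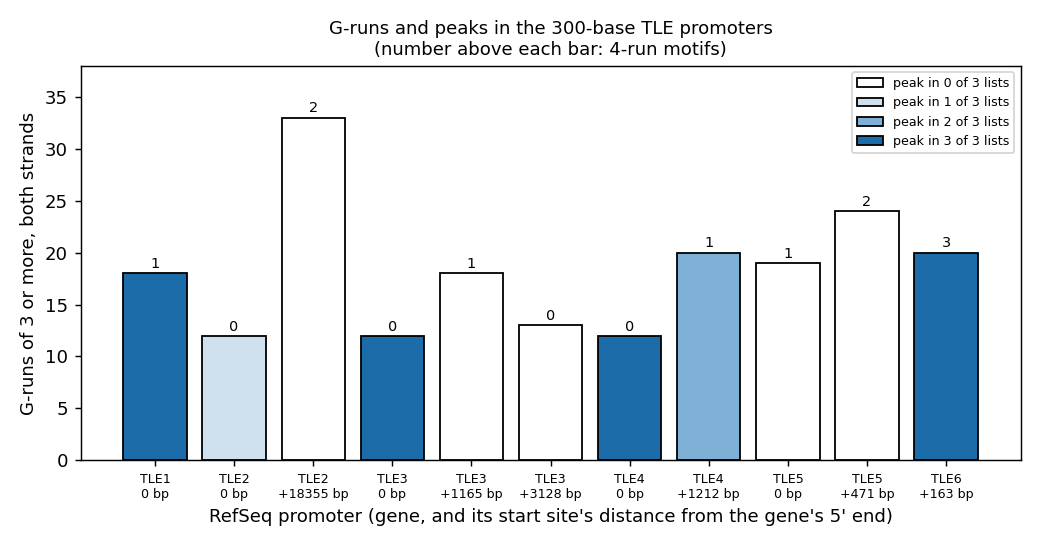
Bars give the number of runs of 3 or more G on both strands in the 300 bases of each of the 11 RefSeq promoters, labelled by gene and by the distance of the start site from the 5′ end of the gene. Shading gives the number of peak lists with a peak over the promoter, and the number above each bar is the count of matches to the 4-run motif. A long G-run could be split into separate runs, as in the TLE1 match. The tallest bars, 33 for the internal TLE2 promoter and 24 for that of TLE5, have a peak in 0 lists, and the 5′ promoter of TLE4 has 12 G-runs with peaks of all 3.

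Biological replicates were compared window by window with edgeR's quasi-likelihood test, which asks whether levels differed between them. No window of 17499 tested passed an adjusted p of 0.05 (0% called), neither in the test over all 3 replicates nor in any of the 3 contrasts. At an unadjusted p under 0.05 the edgeR test over all replicates had 1379 windows (7.88%) and the contrasts 979 to 1508 (5.59% to 8.62%). DESeq2 called 0 and had far fewer windows at an unadjusted p under 0.05, 334. All 6 TLE windows were tested. TLE4 had the lowest adjusted p of the family over all replicates, 0.691 by edgeR. It was 0.22 ± 0.11 higher (log2, ± SE) in BioRep3 than in BioRep1 (edgeR adjusted p = 0.553) and 0.18 ± 0.11 higher in BioRep2 (adjusted p = 0.727). TLE6 differed in the same direction, by 0.31 ± 0.18 between BioRep3 and BioRep1 (edgeR adjusted p = 0.694), and TLE1-DT by 0.28 ± 0.13 (adjusted p = 0.595). TLE1 and TLE3 gave values of the other sign, -0.39 ± 0.28 and -0.38 ± 0.25 (edgeR adjusted p = 0.765 and 0.738). TLE2 gave 0.29 ± 0.35 and TLE5 0.09 ± 0.48, the largest error of the 6. Other adjusted p-values over all replicates were 0.833 for TLE6, 0.847 for TLE3, 0.879 for TLE1, 0.942 for TLE2 and 0.993 for TLE5.

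**Figure D5:**
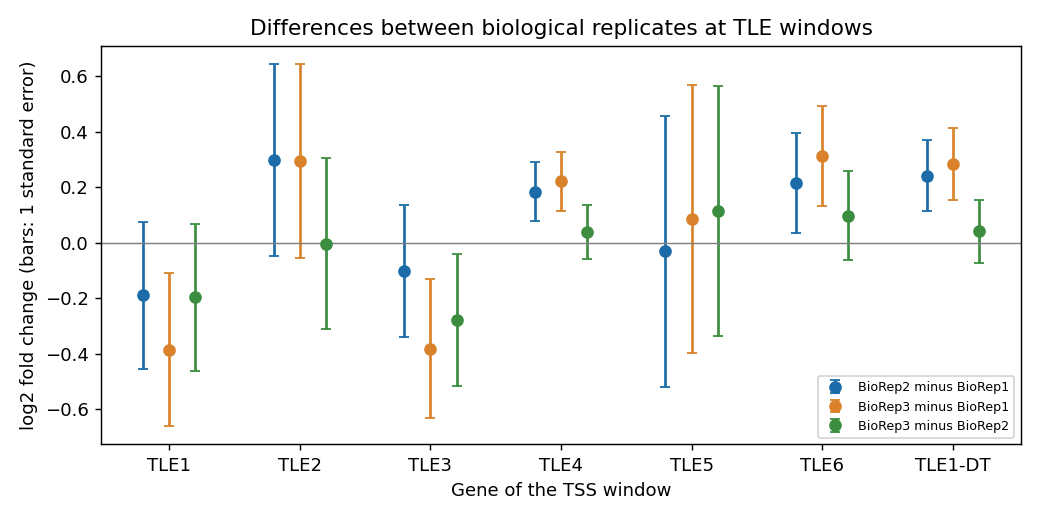
Points are log2 fold changes between biological replicates at the windows of the 6 TLE genes and of TLE1-DT, from the edgeR fit, and bars are 1 standard error. Colours mark the 3 contrasts, each of which shares a replicate with the others. No contrast passed an adjusted p of 0.05, and TLE5 and TLE2, with the fewest reads, have the widest bars.

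Windows most like each member were found by the mean absolute difference of log2(CPM + 1) over the 9 libraries, among protein-coding windows. Nearest to TLE4 were DESI2 (0.11, 221 CPM), PCDH9 (0.24, 195 CPM) and LOC124903762 (0.30, 188 CPM), all with a peak in 3 lists. Nearest to TLE6 were SANBR (0.08, 60.5 CPM), LRRC3 (0.12, 58.7 CPM) and TNKS2 (0.12, 59.0 CPM), again all with a peak in 3 lists. For TLE3 they were GPN2 (0.11), RPL21 (0.12) and CISD3 (0.14), for TLE1 OSBPL11 (0.10), PAK5 (0.13) and PKIG (0.14), for TLE2 COL4A5 (0.20), CHORDC1 (0.22) and ANKRD34B (0.22), and for TLE5 DSG3 (0.22), CDT1 (0.24) and MYO5B (0.25). Of these 12, only OSBPL11, with 2, and RPL21 and CISD3, with 1 each, had a peak in any list. Since all libraries share 1 condition, likeness here is mostly likeness of level.

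Factors that recruit TLE proteins and genes of related corepressor complexes and pathways were described with 4 lists, beside a median of 25.4 CPM and a peak of all 3 lists in 25.4% of 13477 protein-coding windows. In the list of DNA-binding factors that recruit Groucho proteins, which also holds HEY genes not known for this, 2 of 20 windows had a peak in all lists, with a median of 22.3 CPM. They were TCF7L2, a Wnt effector (70.5 ± 6.05 CPM, n = 3), and the homeobox repressor MSX1 (38.9 ± 1.65 CPM). HES4, a Notch-type repressor, had 59.0 ± 12.04 CPM with a peak in 2 lists, and the homeobox gene EN2 40.7 ± 1.10 CPM with a peak in 1. Among other corepressors 8 of 19 windows had one, with a median of 34.1 CPM. MTA2, a subunit of the NuRD complex, had 129 ± 9.66 CPM and HDAC1, a histone deacetylase, 121 ± 4.93 CPM. KDM1A, a histone demethylase, had 57.6 ± 7.64 CPM with a peak in 2 lists, and MTA1 34.1 ± 6.18 CPM with a peak in 1.

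Wnt pathway genes had a peak in all lists in 8 of 13 windows, with a median of 50.3 CPM. CTNNBIP1, an inhibitor of the binding of beta-catenin to TCF factors, had 128 ± 15.4 CPM (n = 3) and the kinase gene CSNK1A1 85.9 ± 7.90 CPM. DVL2 had 39.7 ± 4.01 CPM with a peak in 2 lists, and XIAP, a ubiquitin ligase, 35.9 ± 4.32 CPM with none. Notch pathway genes had a peak in all lists in 3 of 12 windows, with a median of 28.9 CPM. The coactivator MAML1 had 88.1 ± 8.24 CPM, the receptor NOTCH1 66.9 ± 7.05 CPM, NUMB 47.8 ± 5.50 CPM with a peak in 2 lists, and MAML3 36.1 ± 2.92 CPM with none. The 6 TLE windows had a median of 32.5 CPM. Of the listed genes 13 of 33, 10 of 29, 8 of 21 and 3 of 15, in the order of the lists above, had no window by the rule used here.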

How the data were processed

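DNA bound by BG4 was measured in 9 ChIP libraries. The deposited values are raw read counts per 400 bp window around GENCODE release 28 start sites on hg38, per their file names, and were not scaled. Deposited peaks are start and end positions with no score, in 1 list per biological replicate, which the labels of its technical libraries name. Per the submitters' processing notes the tools were bedtools, MACS2, Picard, BWA and cutadapt, with no versions or roles. For the peak threshold, the rule joining technical libraries and the counting of duplicates, details were not given in the sources used here.

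Groups and technical numbers came from sample titles. The file names number the ChIP libraries within a replicate differently, so a library number here is only a name. Genes were placed with RefSeq tables of GRCh38.p14: 13477 protein-coding genes had a window within 1 kb by the rule used for the TLE genes, each window keeping the nearest gene. CPM was averaged over technical libraries and is given as mean ± SD over 3 biological replicates, with 372030 to 846114 reads in windows per library. Counts were compared with edgeR 4.0.16 in R 4.3.3 (TMM, filterByExpr, robust quasi-likelihood fit, Benjamini-Hochberg at 0.05 over all windows) and with DESeq2 1.42.0 as an alternative. Standard errors were derived from the fold change and its F value. The fit was tested on simulated data. Other steps ran in Python 3.11.15 with pandas 2.3.3, numpy 2.4.6, matplotlib 3.10.9 and scipy 1.17.1.

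Members and gene lists were chosen with earlier results of these data known. Named genes were the 6 members, the 3 windows most like each, and up to 2 genes per list with and 2 without a peak in all lists, by mean CPM. TLE1-DT was added after its values were seen. Alternatives were other size factors, no filter, a block, other totals, overlaps, flanks, joins, spans and loop lengths, and leaving out libraries or replicates.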

Additional observations from a re-analysis of the deposited data

How the results depend on the processing

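No window differed between biological replicates with RLE size factors, with DESeq2, without mitochondrial windows or with the technical number as a replicate block, which called 0. Same-numbered libraries of different replicates did not deviate together (9 correlations, -0.00434 to 0.0204). Counting error in windows with few reads weakens such correlations, so this check cannot exclude a pairing. Without the filter on low counts 25 windows passed, and leaving out 1 library gave 0 to 1, with 1 without BioRep1 replicate 1 or BioRep3 replicate 2. No TLE window passed in any of these. TLE window levels left out 1 library at a time ranged from 17.6 to 21.9 CPM for TLE2 and from 11.7 to 14.4 CPM for TLE5, and TLE5 had 13.5 CPM on totals without mitochondrial windows. With at least 50 bp covered, TLE1 had a peak in 0 lists and TLE3 in 1. With peaks up to 200 bp away, TLE1 and TLE3 had 3 and TLE2 had 1. TLE3 had 1 site of all 3 lists with flanks of 1 kb or with peaks of at least 50 bp, TLE4 had 3 sites of any list when gaps of at most 100 bp were joined, and TLE5 had 0 sites with flanks of 1 kb. Local background within 5 Mb and 1 Mb was 9.66 and 6.12 CPM at TLE1, 10.2 and 9.85 CPM at TLE2, 9.74 and 15.1 CPM at TLE4, 10.2 and 9.98 CPM at TLE5, 10.2 and 9.83 CPM at TLE6, and 12.8 CPM within 1 Mb at TLE3. Motifs with loops of at most 3 bases lay in 4 TLE promoters in place of 7. The cause of these shifts was not tested. Few reads limit TLE5 and TLE2.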
